A study of Arabidopsis thaliana with 12 samples.

Results

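The response of wild-type Arabidopsis thaliana rosettes to 3 h at 1% oxygen was described across all genes, from the 3 libraries of wild-type plants under hypoxia and the 3 libraries of wild-type plants kept under control conditions. These 6 of the 12 libraries of the series were chosen by the genotype and treatment in their labels. Of 33208 features in the deposited table, 18212 passed a filter on low counts and were tested. The study set wild type beside med25-1, a mutant line of MED25, one of the Mediator subunits through which transcription factors reach RNA polymerase II. Growth plates held 0.5% sucrose, the photoperiod was 16 h of light at 21 °C and 8 h of dark at 18 °C, and plants were 3 weeks old when treated. Hypoxic plants were frozen directly after the treatment, and poly(A) RNA was sequenced with a stranded kit. The labels name no accession for the wild type, and they count 3 biological replicates per group without saying how many plants were pooled in each.

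Plants sense oxygen through the N-degron pathway. Plant cysteine oxidases (PCOs) use oxygen to oxidize the N-terminal cysteine of group VII ethylene response factors (ERFs), which are then arginylated, ubiquitinated and degraded. When oxygen is short, the constitutive factors RAP2.12, RAP2.2 and RAP2.3 escape this route and switch on anaerobic genes through a hypoxia-responsive promoter element. The best known products feed sucrose into glycolysis and regenerate NAD+ by fermentation to ethanol, lactate or alanine, while processes that cost much ATP, such as growth, slow down.

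A call means an adjusted p under 0.05 in edgeR's quasi-likelihood test with Benjamini-Hochberg adjustment, and "rose" and "fell" are used only of called genes. Levels are unique gene reads scaled to library size (CPM), listed by replicate 1, 2 and 3, and means carry their SD with n = 3 libraries. Log2 fold changes are hypoxia over control with a standard error (SE), and gene positions are on TAIR10. Libraries are wild type unless med25-1 is named.

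Hypoxia raised 556 genes and lowered 625, together 1181 of the 18212 tested, which is 6.48% of them, 3.05% higher and 3.43% lower. The genes that rose did so by larger steps. At least 8-fold changes were found for 65 genes that rose and 22 that fell, and at least 32-fold changes for 28 that rose and 1 that fell. The median log2 fold change was 1.22 over the genes that rose, -1.0001 over those that fell and 0.00 over all tested genes. In each called gene the 3 hypoxia libraries all lay above or all below the 3 control libraries, which also holds for 32.5% of all tested genes. The genes that rose took 4.57%, 4.61% and 4.63% of the reads of tested genes in the hypoxia libraries, against 1.83%, 1.83% and 1.78% in the control libraries. Those that fell took 1.94%, 2.08% and 2.06% under hypoxia and 4.76%, 4.05% and 4.06% under control conditions.

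**Figure D1:**
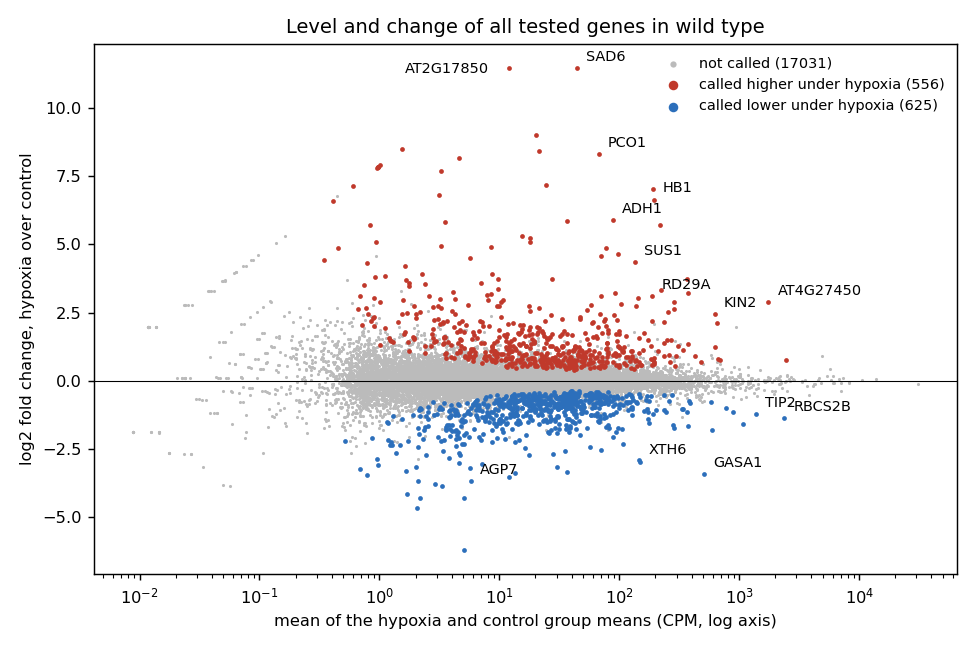
Each point is 1 of the 18212 tested genes, with the mean of the hypoxia and control group means in CPM on a log axis (x) and the log2 fold change of hypoxia over control (y). The 556 genes called higher (red) reach further from 0 than the 625 called lower (blue), and the largest changes belong to genes with few or no reads in control plants, such as AT2G17850 and SAD6.

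Gene reads totalled 12512275 to 14568888 per hypoxia library and 11360247 to 19149540 per control library. All 8 leaf mesophyll markers passed the filter, with summed levels of 62971 to 66286 CPM under hypoxia and 66987 to 70980 CPM under control conditions. Of these 8 markers 1 was called, RBCS2B, lower at a mean of 1319 CPM under hypoxia and 3430 CPM under control conditions. That call was lost without any 1 of the 6 wild-type libraries. Of 14 root markers, 7 had no read in any of the 6 libraries, and 3 passed the filter, with none called. Summed levels of the root list were 24.8 to 27.6 CPM in hypoxia libraries and 27.9 to 36.3 CPM in control libraries. SCR averaged 18.5 CPM under hypoxia and 25.1 CPM under control conditions, and SHR 5.58 and 6.24 CPM in the same order. Seed and shoot meristem markers summed to at most 0.175 CPM in any of the 6 libraries. Summed levels of 5 epidermal markers were 1096 to 1378 CPM in hypoxia libraries and 621 to 968 CPM in control libraries, and those of 5 vascular markers were 171 to 261 CPM and 245 to 326 CPM in the same order, with no member of either list called. Of 7 floral markers only PI passed the filter, and it rose with a log2 fold change of 2.67 ± 0.34 (SE), while AP1, AP3, AG and SEP1 averaged 0, 0.0947, 0.150 and 0.0235 CPM under hypoxia and 0.0292, 0.0920, 0.327 and 0.0761 CPM under control conditions. SEP2 averaged 0.828 CPM under hypoxia and 0.0876 CPM under control conditions, and SEP3 averaged 0.169 and 0.0709 CPM in the same order. The part of floral tissue in the rise of PI was not tested. Reads in introns made up 2.14% ± 0.421 of gene reads under hypoxia and 1.78% ± 0.169 under control conditions, a difference of 0.36 percentage points (two-sided exact permutation test, n = 3 each, p = 0.3, where the smallest possible p is 0.1). In whole rosettes, fewer cells of a type and less RNA per cell cannot be told apart. A call was termed stable where it held in each of 12 fits that left out 1 library and the log2 fold change stayed within a factor of 1.5 when a wild-type library was left out. Of the 1181 calls, 445 were stable, which is 2.44% of tested genes, 213 of them higher and 232 lower.

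Of the tested genes of oxygen sensing 26.3% were called, against 6.48% of all tested genes, with large rises among them. Of 19 tested genes of the sensing pathway 4 rose, the oxidases PCO1 and PCO2, the induced group VII factor HRE2 and the repressor HRA1, and 1 fell, RAP2.3, against a median of 0.06 over the list. PCO1 (AT5G15120, chr5:4898641-4900734) stood at 129, 143 and 134 CPM under hypoxia and at 0.446, 0.438 and 0.372 CPM in control libraries. PCO2 (AT5G39890, chr5:15974270-15976270) stood at 47.6, 51.3 and 47.1 CPM under hypoxia and at 0.446, 0.438 and 0.159 CPM in control libraries. Both oxidase genes were thus near 0 under control conditions and varied little among the hypoxic replicates. Their log2 fold changes were 8.32 ± 0.25 (SE; edgeR adjusted p = 4.8e-09) and 7.19 ± 0.32 (edgeR adjusted p = 1.3e-07). The other oxidase genes, PCO3, PCO4 and PCO5, averaged 19.2 ± 3.15, 23.8 ± 1.47 and 37.7 ± 4.55 CPM under hypoxia and 18.5 ± 1.44, 20.6 ± 0.32 and 42.8 ± 1.53 CPM under control conditions, and none was called. PRT6, the ubiquitin ligase that recognizes the arginylated N terminus, averaged 62.1 ± 12.8 CPM under hypoxia and 61.6 ± 4.75 CPM under control conditions.

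HRA1 (AT3G10040, chr3:3096345-3098417), a trihelix protein that binds RAP2.12 and restrains it, stood at 252, 507 and 369 CPM under hypoxia and at 2.75, 2.89 and 2.98 CPM in control libraries. Hypoxia replicate 2 of HRA1 was the highest and replicate 1 the lowest, while the control replicates were nearly equal. Its log2 fold change was 7.03 ± 0.38 (edgeR adjusted p = 6.5e-07). HRE2 (AT2G47520, chr2:19502776-19503702) had 261 reads over the 3 hypoxia libraries and 1 read over the 3 control libraries, a ratio of 285 after scaling by library size with an exact 95% interval of 50.7 to 11291 that covers counting error only. The single control read came from replicate 3, without which HRE2 was at least 54.05-fold higher under hypoxia. The 5 group VII factors did not move alike. RAP2.12 (AT1G53910) stood at 143, 171 and 168 CPM under hypoxia and at 163, 143 and 139 CPM in control libraries, with a log2 fold change of 0.12 ± 0.13. RAP2.2 (AT3G14230) stood at 64.2, 137 and 103 CPM under hypoxia and at 127, 99.0 and 98.1 CPM in control libraries, and HRE1 (AT1G72360) at 6.30, 14.2 and 7.06 CPM and at 9.59, 9.02 and 6.22 CPM. In these 3 factors the hypoxia and control libraries overlapped. RAP2.3 (AT3G16770, chr3:5705541-5707084) stood at 189, 287 and 211 CPM under hypoxia and at 628, 473 and 428 CPM in control libraries, so that all hypoxia libraries lay below all control libraries. It fell by 1.15 ± 0.25 on the log2 scale (edgeR adjusted p = 0.016), a call that was lost without control replicate 1, hypoxia replicate 1 or hypoxia replicate 3.

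The promoter of ADH1, the classic anaerobic gene, carries the core of the hypoxia-responsive promoter element, which group VII factors bind. The core was searched as AACCA and GC with any 3 bases between them, on both strands, from 250 bases before to 50 bases after each annotated start, in the RefSeq sequence of TAIR10.1. The 250 bases before the start are printed for ADH1, with the element in capitals, and for PDC1 and AT2G17850, which rose by more but hold no such match in this window. The windows are chr1:28975005-28975254 on the plus strand, chr4:15954804-15955053 on the minus strand and chr2:7760840-7761089 on the minus strand.
ADH1: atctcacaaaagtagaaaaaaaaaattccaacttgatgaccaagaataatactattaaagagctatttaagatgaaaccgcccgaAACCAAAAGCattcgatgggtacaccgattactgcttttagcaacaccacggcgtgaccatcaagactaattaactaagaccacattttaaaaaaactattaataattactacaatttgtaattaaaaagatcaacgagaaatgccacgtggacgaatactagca
PDC1: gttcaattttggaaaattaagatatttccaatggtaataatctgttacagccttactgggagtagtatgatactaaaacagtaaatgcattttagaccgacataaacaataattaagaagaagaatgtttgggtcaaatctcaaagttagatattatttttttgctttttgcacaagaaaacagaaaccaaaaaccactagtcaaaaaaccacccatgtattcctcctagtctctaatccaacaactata
AT2G17850: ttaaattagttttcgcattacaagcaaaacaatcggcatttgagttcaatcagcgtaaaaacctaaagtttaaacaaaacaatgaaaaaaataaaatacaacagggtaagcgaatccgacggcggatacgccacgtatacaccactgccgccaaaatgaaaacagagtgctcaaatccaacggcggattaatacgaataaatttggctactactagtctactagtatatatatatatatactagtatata

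The element in ADH1 begins 165 bases before the start. It was found in 7 of the 42 promoters of core hypoxia genes that rose (16.7%) and in 10 of the 65 promoters of genes that rose at least 8-fold (15.4%), against 436 of 18185 promoters of tested genes (2.40%). Among the 514 other genes that rose it was found in 2.53%, and among the 625 that fell in 2.24%. The stretches that hold it are shown for the core hypoxia genes with a match other than ADH1, to let the variable bases between the fixed ones be compared. They were chosen after the values were seen, and in PCO1 the capitals are the reverse complement of the element. Only in AT4G10270 (229 and 99 bases) and NIP2;1 (99 bases) does the element shown begin before the start. In PCO1 (base 10), AT3G27220 (bases 11 and 41), PFK6 (base 41) and AT1G26270 (base 38) it begins after the annotated start, within the transcribed sequence.
PCO1, chr5:4898640-4898669, plus strand: caaaagaatgGCCCCTGGTTttgtaatcga
AT4G10270, chr4:6374495-6374524, plus strand: acaatctcaaAACCAGGTGCacatgatagc
AT4G10270, chr4:6374625-6374654, plus strand: aaacaaccaaAACCAACGGCcacagcttct
NIP2;1, chr2:14516068-14516097, minus strand: tgctctccaaAACCATCTGCtgcaattcag
AT3G27220, chr3:10053732-10053761, minus strand: caaaattggaAACCACCGGCgtgatttctg
AT3G27220, chr3:10053712-10053731, minus strand: gttggggaaaAACCACCGGC
PFK6, chr4:15848503-15848522, minus strand: caaaaggaaaAACCAGCCGC
AT1G26270, chr1:9092511-9092533, minus strand: gttagttttaAACCACTTGCttg
These genes differed widely in response, with log2 fold changes of 8.32 for PCO1, 7.86 for AT4G10270, 7.82 for NIP2;1, 4.57 for AT3G27220, 2.78 for PFK6 and 1.16 for AT1G26270. A match is a run of letters and was not tested as a binding site.

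Of 13 tested genes for fermentation, alanine and GABA 4 rose and 1 fell, with a median log2 fold change of 0.13. The share called was 38.5%, against 6.48% of all tested genes. ADH1 (AT1G77120, chr1:28975255-28977417), the alcohol dehydrogenase that turns acetaldehyde into ethanol, stood at 127, 245 and 154 CPM under hypoxia and at 2.23, 2.28 and 4.09 CPM in control libraries. PDC1 (AT4G33070, chr4:15952257-15954803), a pyruvate decarboxylase that feeds it with acetaldehyde, stood at 23.7, 67.1 and 30.2 CPM under hypoxia and at 0.0743, 0 and 0.106 CPM in control libraries. Hypoxia replicate 2 was the highest of its group for both genes, and no hypoxia library came near a control library. The log2 fold change of ADH1 was 5.90 ± 0.36 (edgeR adjusted p = 1.7e-06). PDC1 had 1564 reads under hypoxia and 3 reads under control conditions, a scaled ratio of 569 with an exact 95% interval of 194 to 2761 for counting error only. PDC2 (AT5G54960, chr5:22310553-22312832), the second decarboxylase gene, was already transcribed under control conditions, with 180, 432 and 315 CPM under hypoxia and 81.2, 65.7 and 55.2 CPM in control libraries. It rose by 2.199 ± 0.31 on the log2 scale (edgeR adjusted p = 0.0013), so that by mean RPKM, which corrects for length, PDC2 stood at 122 ± 46.0 under hypoxia and 27.1 ± 4.73 under control conditions. ALAAT1 (AT1G17290), alanine aminotransferase, stood at 274, 452 and 380 CPM under hypoxia and at 148, 121 and 123 CPM in control libraries, a rise of 1.49 ± 0.23 (edgeR adjusted p = 0.0024). ADH1, PDC1, PDC2 and ALAAT1 were the 4 that rose. POP2, a GABA transaminase, fell by 0.57 ± 0.13, a call lost without any 1 of the 3 control libraries and without hypoxia replicate 2 or 3.

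Sucrose synthase, which splits sucrose at a lower ATP cost than invertase, rose through SUS1 (AT5G20830, chr5:7050217-7055398). SUS1 stood at 162, 322 and 287 CPM under hypoxia and at 13.4, 11.6 and 12.5 CPM in control libraries. Every hypoxia library was more than 10 times the level of every control library. Its log2 fold change was 4.36 ± 0.39 (edgeR adjusted p = 4.5e-05). Its close relative SUS4 (AT3G43190) was scarce, at 0.796, 1.57 and 1.69 CPM under hypoxia and 0.223, 0.175 and 0.213 CPM in control libraries, and its rise of 2.67 ± 0.57 was lost without any 1 of the 3 control libraries and without hypoxia replicate 2 or 3. SUS1 and SUS4 were the only 2 of 26 tested genes of sucrose and starch breakdown that rose, and none fell. The share called was 7.69%, near the 6.48% of all tested genes. The count of 2 became 1 without any 1 of those 5 libraries and 4 without med25-1 hypoxia replicate 3, and 1 gene fell without control replicate 1 or med25-1 hypoxia replicate 3. With wild-type libraries alone 4 rose and 2 fell.

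Of the tested genes of glycolysis 16.7% were called, against 6.48% of all tested genes. Of 36 tested genes 5 rose and 1 fell, with a median log2 fold change of -0.05, and the count of 5 became 3 without control replicate 2 or 3 or without hypoxia replicate 2 or 3. The count of 1 became 0 without any 1 of 5 wild-type libraries, hypoxia replicate 2 being the exception, and became 3 without med25-1 hypoxia replicate 2, 5 without med25-1 hypoxia replicate 3 and 5 with wild-type libraries alone. PFK6 (AT4G32840, chr4:15844576-15848552), a phosphofructokinase at the committed step, stood at 87.8, 118 and 100 CPM under hypoxia and at 15.6, 14.7 and 14.4 CPM in control libraries, a log2 fold change of 2.78 ± 0.18 (edgeR adjusted p = 2.7e-06). PFK3 (AT4G26270) rose by 1.64 ± 0.32, with 27.8, 44.0 and 34.9 CPM under hypoxia and 11.5, 11.5 and 11.2 CPM in control libraries. GAPC2 (AT1G13440), cytosolic glyceraldehyde-3-phosphate dehydrogenase, stood at 857, 879 and 882 CPM under hypoxia and at 440, 538 and 569 CPM in control libraries. These 3 rises were stable, and in each the groups lay apart. FBA5 (AT4G26530), an aldolase, went the other way with 62.4, 117 and 90.1 CPM under hypoxia and 273, 262 and 253 CPM in control libraries, a fall of 1.55 ± 0.37 that was lost without any 1 of those 5 libraries.

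**Figure D2:**
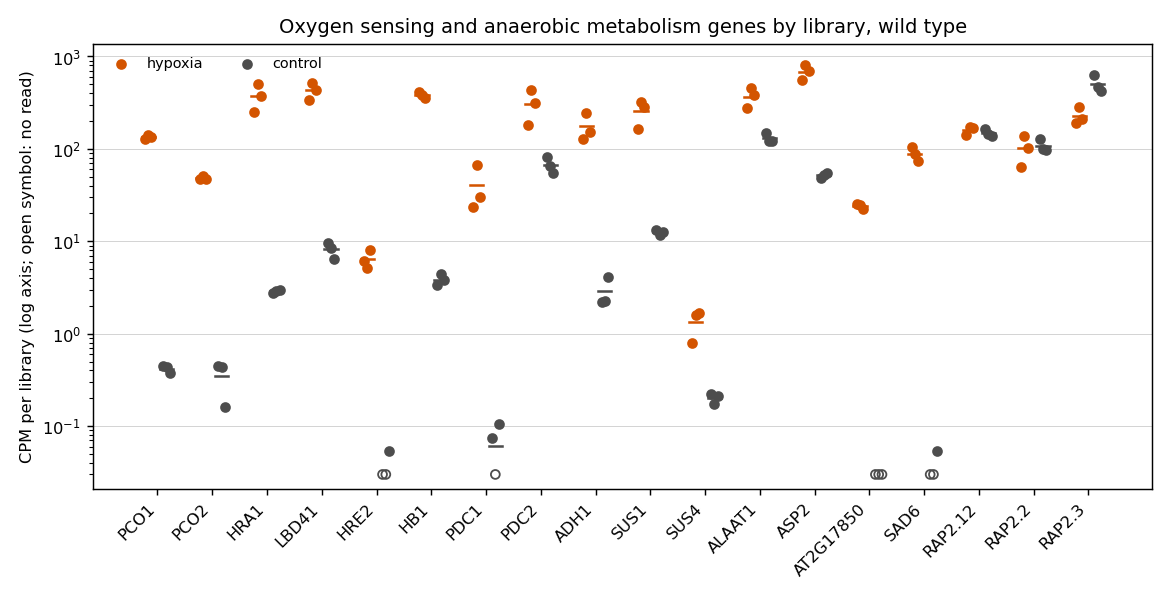
Levels in CPM (y, log axis) of 18 genes in the 3 hypoxia libraries (orange, left) and the 3 control libraries (grey, right), with a bar at each group mean and open symbols for libraries with no read. PCO1, PCO2, HRA1, HB1 and ADH1 are separated by more than 10-fold, RAP2.12 and RAP2.2 overlap, and RAP2.3 is lower under hypoxia.

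ASP2 (AT5G19550, chr5:6597971-6601971), a cytosolic aspartate aminotransferase, had 1 of the larger gains in CPM. ASP2 stood at 554, 799 and 703 CPM under hypoxia and at 48.7, 52.2 and 54.5 CPM in control libraries. The lowest hypoxia library was about 10 times the highest control library. Its log2 fold change was 3.73 ± 0.19 (edgeR adjusted p = 4.6e-07). Of 22 tested genes of nitrate, ammonium and amino acid metabolism, a list without ASP2, 2 rose and 1 fell. That is 13.6% of the list, against 6.48% of all tested genes. The 2 became 1 without any 1 of the 3 control libraries or hypoxia replicate 1 or 3, 4 without med25-1 hypoxia replicate 3 and 4 with wild-type libraries alone, where 2 fell. P5CS2 (AT3G55610), a proline synthesis enzyme, stood at 482, 597 and 593 CPM under hypoxia and at 319, 290 and 287 CPM in control libraries, a stable rise of 0.90 ± 0.16. P5CS1 (AT2G39800), which codes for the same step, stood at 174, 97.3 and 143 CPM under hypoxia and at 55.9, 56.9 and 57.6 CPM in control libraries, and its rise of 1.28 ± 0.28 was lost without any 1 of those 5 libraries. GLN1;4 (AT5G16570), a cytosolic glutamine synthetase, fell by 1.65 ± 0.31 to 1.74, 2.74 and 2.47 CPM under hypoxia, against 5.94, 8.23 and 7.60 CPM in control libraries.

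Of 51 tested core hypoxia genes, which are induced by low oxygen in many cell types, 42 rose and 1 fell, and 35 of the rises were stable. The share called was 84.3%, and the median log2 fold change was 2.88. Between 38 and 43 rose when 1 library was left out. HB1 (AT2G16060, chr2:6982531-6983777), a phytoglobin that scavenges nitric oxide, stood at 414, 383 and 356 CPM under hypoxia and at 3.34, 4.38 and 3.77 CPM in control libraries. LBD41 (AT3G02550, chr3:536500-538126), a LOB domain transcription factor, stood at 335, 519 and 431 CPM under hypoxia and at 9.51, 8.49 and 6.48 CPM in control libraries. Both rose from low but detectable levels, with tight control replicates. Their log2 fold changes were 6.65 ± 0.27 (edgeR adjusted p = 7.5e-08) and 5.72 ± 0.25 (edgeR adjusted p = 1.3e-07). CML38 (AT1G76650), a calmodulin-like calcium sensor of hypoxic stress granules, rose by 4.63 ± 0.28 with 196, 183 and 188 CPM under hypoxia and 8.84, 7.35 and 6.70 CPM in control libraries. RBOHD (AT5G47910), a plasma membrane NADPH oxidase that produces superoxide, rose by 2.46 ± 0.28 with 73.6, 160 and 118 CPM under hypoxia and 22.1, 20.5 and 21.4 CPM in control libraries. The RBOHD hypoxia libraries were spread widely, and all stood above the narrow control range.

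Several of the strong responses belonged to genes named here only by protein family, beside genes of known function such as SAD6 and NIP2;1. AT2G17850 (chr2:7760005-7760839), a rhodanese family protein, had 25.6, 24.7 and 22.1 CPM under hypoxia and no read in any control library. Its 965 hypoxia reads placed it at least 351-fold higher, with a floor of 3 counts over the control group, and at least 199.8-fold without control replicate 3. SAD6 (AT1G43800), an acyl carrier protein desaturase, had 104, 87.3 and 73.4 CPM under hypoxia and 1 read over the control libraries, a scaled ratio of 3849 with an exact 95% interval of 690 to 152086 for counting error only. That read lay in control replicate 3, without which SAD6 was at least 730.6-fold higher. AT4G10265 (chr4:6373008-6373667), a wound-responsive family protein, stood at 34.03, 50.3 and 42.8 CPM under hypoxia and at 0.149, 0 and 0.159 CPM in control libraries. A second member of that family, AT4G33560 (chr4:16135157-16135921), stood at 49.3, 96.4 and 70.5 CPM under hypoxia and at 1.86, 0.963 and 0.904 CPM in control libraries. AT2G17850, SAD6 and AT4G10265 were at or near 0 in every control library, whereas AT4G33560 had 53 reads over the 3. SRO5 (AT5G62520), of the poly(ADP-ribose) polymerase-like SRO family, rose by 5.82 ± 0.37, and AT3G27220 (chr3:10051069-10053761), a kelch repeat protein, by 4.57 ± 0.19. AT3G03270, an adenine nucleotide alpha hydrolase-like protein, rose by 3.11 ± 0.27 to 154, 103 and 118 CPM under hypoxia, against 9.07, 17.51 and 16.96 CPM in control libraries. NIP2;1 (AT2G34390), an aquaglyceroporin known to carry lactic acid, had 76 reads under hypoxia and none under control conditions, which is at least 27.6-fold higher, and at least 15.74-fold without control replicate 3.

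Among called genes, the largest gain in mean CPM was that of AT4G27450 (chr4:13727370-13729002), an aluminum induced protein family member, at 2624, 3334 and 3290 CPM under hypoxia and 479, 396 and 378 CPM in control libraries. By mean RPKM this gene ranked 38th of all features under hypoxia, at 2007 ± 221, and 228th under control conditions, at 273 ± 28.2. HB1 ranked 174th under hypoxia, at 344 ± 31.6 RPKM, and 12557th under control conditions, at 3.45 ± 0.602 RPKM. ASP2 ranked 180th under hypoxia and 3613th under control conditions. All 3 thus stood among the abundant transcripts under hypoxia. ECS1 (AT1G31580) stood at 424, 581 and 513 CPM under hypoxia and at 65.4, 63.5 and 75.5 CPM in control libraries, and AT2G25510, an uncharacterized protein, at 412, 518 and 550 CPM and at 76.5, 71.97 and 90.4 CPM. Both rises were stable, with log2 fold changes of 2.89 ± 0.33 and 2.63 ± 0.24.

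Of the 9 core hypoxia genes that did not rise, PHI-1 (AT1G35140), a phosphate-responsive family protein, fell by 2.16 ± 0.46 with 4.78, 6.22 and 5.15 CPM under hypoxia and 43.7, 11.1 and 17.3 CPM in control libraries. Its control replicate 1 lay far above the other 2, and the call was lost without that library, at a log2 fold change of -1.41, and without hypoxia replicate 1 or 3. HRE1, PP2-A11, AT2G15880, HSFA2, AT3G10020, FHL, AT5G39580 and AT5G42200 were not called. HSFA2, a heat shock factor, averaged 1.502 ± 0.0657 CPM under hypoxia and 0.451 ± 0.334 CPM under control conditions, and AT3G10020 averaged 386 ± 9.99 CPM and 373 ± 14.3 CPM.

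Many genes of abscisic acid (ABA) and cold responses rose. ABA is the hormone of drought and cold acclimation, and the CBF factors it acts beside bind C-repeat elements of cold-regulated genes. Of 37 tested genes 17 rose and none fell (45.9% called), 10 of the rises were stable, and the median log2 fold change was 0.98. The count was 11 without hypoxia replicate 3, where it was lowest. RD29A (AT5G52310, chr5:21240717-21243644), a dehydration and cold marker, stood at 303, 375 and 334 CPM under hypoxia and at 30.8, 48.9 and 38.7 CPM in control libraries. Each hypoxia library was more than 6 times the highest control library. Its log2 fold change was 3.10 ± 0.39 (edgeR adjusted p = 0.0006). The cold-regulated chloroplast proteins COR15A (AT2G42540) and COR15B (AT2G42530) stood at 304, 225 and 238 CPM and at 222, 153 and 163 CPM under hypoxia, against 35.5, 35.5 and 23.2 CPM and 25.9, 26.4 and 25.03 CPM in control libraries. KIN2 (AT5G15970), a cold-induced hydrophilic protein, stood at 1439, 778 and 964 CPM under hypoxia and at 194, 205 and 185 CPM in control libraries, and its neighbour KIN1 (AT5G15960) rose by 3.75 ± 0.53. KIN1 and KIN2 are near-identical, so that reads may be divided between them in a way that the counting does not show. Hypoxia replicate 1 was the highest library for COR15A, COR15B and KIN2 and the lowest for RD29A.

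The upstream factors CBF3 (AT4G25480) and CBF1 (AT4G25490) were lower in level and rose as well. CBF3 stood at 6.23, 7.29 and 7.27 CPM under hypoxia and at 1.11, 1.05 and 1.28 CPM in control libraries, and CBF1 at 10.4, 11.6 and 9.81 CPM and at 3.05, 3.50 and 2.39 CPM. Their log2 fold changes were 2.57 ± 0.26 (edgeR adjusted p = 0.00012) and 1.84 ± 0.25 (edgeR adjusted p = 0.00099). GolS2 (AT1G56600), a galactinol synthase for raffinose sugars, rose by 2.88 ± 0.20 with 18.8, 20.6 and 15.7 CPM under hypoxia and 2.68, 2.36 and 2.39 CPM in control libraries. CYP707A3 (AT5G45340), which breaks down ABA, rose by 1.72 ± 0.21. NCED3 (AT3G14440), the rate-limiting step of ABA synthesis, stood at 18.8, 29.8 and 26.3 CPM under hypoxia and at 12.6, 16.02 and 13.02 CPM in control libraries, and its rise of 0.85 ± 0.20 was lost without control replicate 1 or 3 or hypoxia replicate 2 or 3. In their promoters, the G-box CACGTG was found in 7 of the 17 ABA and cold genes that rose (41.2%), against 90 of the 556 genes that rose (16.2%), 52 of the 625 that fell (8.32%) and 1617 of 18185 tested (8.89%). The ABA element ACGTGT, which overlaps it, was found in 19.96%, 10.6% and 13.2% of those last 3 sets. The C-repeat CCGAC was found in 21.4% of promoters of genes that rose, in 17.3% of those that fell and in 16.6% of those tested. Among stable calls the C-repeat shares were close, 23.0% for rises and 22.4% for falls. Of the 17 ABA and cold genes that rose, 5 held the C-repeat and 5 held ACGTGT (29.4% each). No promoter of the 17 held the hypoxia element.

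**Figure D3:**
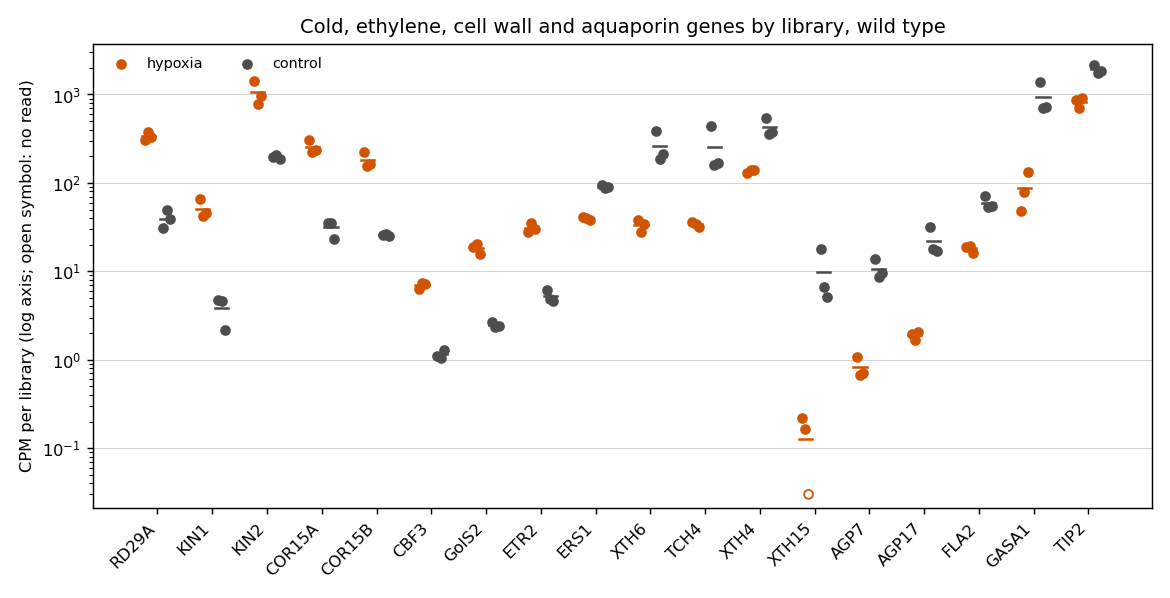
Levels in CPM (y, log axis) of 18 genes in the 3 hypoxia libraries (orange, left) and the 3 control libraries (grey, right), with a bar at each group mean and open symbols for libraries with no read. RD29A to ETR2 are higher under hypoxia and ERS1 to TIP2 lower, and control replicate 1 is the top library for each gene from ERS1 to TIP2.

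Ethylene genes moved in both directions. Ethylene gathers in waterlogged tissue, and its receptors repress signalling when no hormone is bound. Of 24 tested genes 2 rose and 5 fell (29.2% called, against 6.48% of all tested genes), with a median log2 fold change of -0.16. The count of 2 became 1 without control replicate 1 or 3. The count of 5 became 3 without any 1 of the 3 control libraries, hypoxia replicate 2 or 3, or med25-1 control replicate 1. The receptor gene ETR2 (AT3G23150, chr3:8254559-8257888) stood at 28.2, 34.9 and 29.7 CPM under hypoxia and at 6.17, 4.82 and 4.62 CPM in control libraries, a log2 fold change of 2.57 ± 0.19 (edgeR adjusted p = 1e-05). The receptor gene ERS1 (AT2G40940, chr2:17084321-17087326) stood at 41.1, 39.8 and 38.2 CPM under hypoxia and at 93.7, 88.3 and 90.3 CPM in control libraries, a fall of 1.19 ± 0.12 (edgeR adjusted p = 8.8e-05). These 2 members of the receptor family thus moved in opposite directions, each with little spread. ACS11 (AT4G08040), a synthase of the ethylene precursor, fell by 2.65 ± 0.24, and EBF2 (AT5G25350), which marks the ethylene factor EIN3 for degradation, fell by 1.07 ± 0.17. ACO1 (AT2G19590), an oxidase that makes ethylene with oxygen as a substrate, stood at 6.95, 3.15 and 4.38 CPM under hypoxia and at 0.446, 1.31 and 0.532 CPM in control libraries, and its rise of 2.71 ± 0.54 was lost without control replicate 1 or 3.

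The number of jasmonate and salicylate genes called depended on the libraries in the fit. Of 38 tested jasmonate genes 3 rose and none fell, and 31 lay above 0, with a median log2 fold change of 0.37. The share of jasmonate genes called was 7.89%, near the 6.48% of all tested genes. The count of 3 became 1 without control replicate 2 and 5 without med25-1 control replicate 3 or med25-1 hypoxia replicate 3, and 13 with wild-type libraries alone. JAZ2 (AT1G74950), a repressor that jasmonate removes, stood at 107, 153 and 157 CPM under hypoxia and at 58.8, 48.6 and 46.2 CPM in control libraries, a stable rise of 1.44 ± 0.26. CORI3 (AT4G23600) stood at 731, 524 and 775 CPM under hypoxia and at 131, 32.7 and 55.8 CPM in control libraries, and its rise of 3.21 ± 0.65 was lost without control replicate 2 or 3. OPR3 (AT2G06050), a jasmonate synthesis enzyme, rose by 1.70 ± 0.33, lost without control replicate 2. Of 23 tested salicylate genes 1 rose (4.35% called, against 6.48% of all tested genes), and 21 lay above 0 with a median of 0.98. The riser ACD6 (AT4G14400), an ankyrin protein of salicylate signalling, stood at 102, 147 and 129 CPM under hypoxia and at 15.7, 34.5 and 27.9 CPM in control libraries, a stable log2 fold change of 2.28 ± 0.43. Between 1 and 5 salicylate genes rose when 1 library was left out, with 5 without med25-1 hypoxia replicate 3 and 2 without med25-1 control replicate 2, and with wild-type libraries alone 12 rose.

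**Figure D4:**
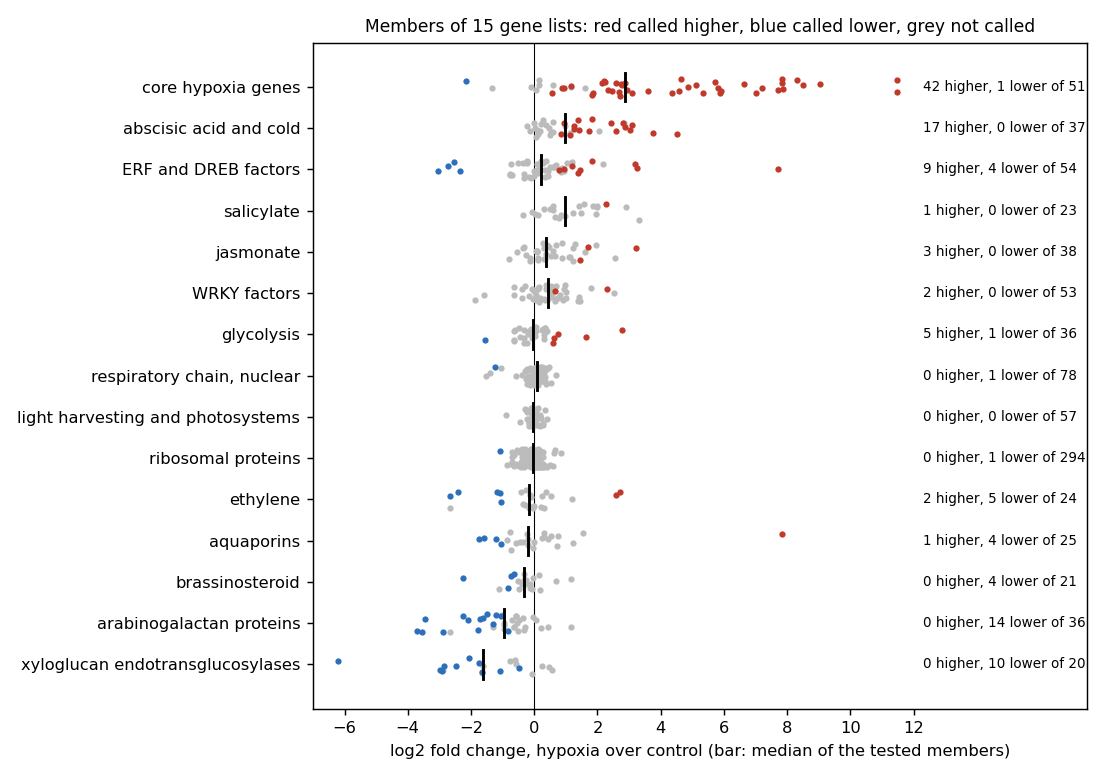
Log2 fold changes of hypoxia over control (x) for the tested members of 15 gene lists (rows), each point 1 gene, red where called higher, blue where called lower and grey where not called, with a black bar at the median of the list. The core hypoxia list has its median at 2.88 and the ABA and cold list at 0.98, the arabinogalactan proteins at -0.95 and the xyloglucan endotransglucosylases at -1.63, while photosystem and ribosomal proteins cluster at 0.

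Transcription factor families differed in the share called, against 6.48% of all tested genes. Of 54 tested ERF and DREB factors 9 rose and 4 fell (24.1% called). ERF53 (AT2G20880) rose by 3.25 ± 0.61 with 6.88, 5.89 and 9.39 CPM under hypoxia and 0.520, 1.14 and 0.691 CPM in control libraries, and SNZ (AT2G39250), a flowering repressor, rose by 1.45 ± 0.22. WRI4 (AT1G79700, chr1:29990336-29993766), a regulator of fatty acid and wax synthesis, fell by 2.55 ± 0.28 with 27.01, 18.2 and 15.9 CPM under hypoxia and 115, 127 and 115 CPM in control libraries. DREB26 (AT1G21910) fell by 3.04 ± 0.51, and its log2 fold change was -2.38 without control replicate 1. Of 53 tested WRKY factors 2 rose and none fell (3.77% called), with a median log2 fold change of 0.43. The count was 1 without control replicate 1 or hypoxia replicate 2 or 3. It was 6 without med25-1 hypoxia replicate 3 and 12 with wild-type libraries alone. WRKY58 (AT3G01080) stood at 3.11, 3.73 and 3.18 CPM under hypoxia and at 0.966, 0.876 and 0.266 CPM in control libraries, a stable rise of 2.31 ± 0.39. Of 80 tested bHLH factors 2 rose and 5 fell (8.75% called). Between 1 and 4 rose and between 3 and 8 fell when 1 library was left out. AT1G72210 rose by 3.00 ± 0.44, while AT2G31730, AT5G51790 and AT2G42300 had log2 fold changes of -1.91 ± 0.27, -2.32 ± 0.34 and -1.08 ± 0.17. The calls of these 4 genes were stable. No call among 46 MYB and 52 NAC factors was stable.

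Xyloglucan endotransglucosylases/hydrolases (XTHs) cut and rejoin xyloglucan, the polymer that ties cellulose microfibrils together, and allow the wall of a growing cell to yield. Of 20 tested XTH genes 10 fell and none rose (50% called), 4 of the falls were stable, and the median log2 fold change was -1.63. The count was 6 without control replicate 1, hypoxia replicate 2 or hypoxia replicate 3. XTH6 (AT5G65730, chr5:26298728-26300529) stood at 38.3, 27.7 and 34.6 CPM under hypoxia and at 389, 186 and 212 CPM in control libraries. TCH4 (AT5G57560), a touch-induced XTH, stood at 36.0, 34.4 and 32.0 CPM under hypoxia and at 440, 161 and 170 CPM in control libraries. Control replicate 1 was the highest by far for both, and even the lowest control library lay well above every hypoxia library. XTH6 fell by 2.97 ± 0.42 (edgeR adjusted p = 0.0012). TCH4 fell by 2.91 ± 0.41 (edgeR adjusted p = 0.0011), with a log2 fold change of -2.28 without control replicate 1. XTH4 (AT2G06850) fell by 1.64 ± 0.30 to 129, 140 and 140 CPM under hypoxia, against 548, 353 and 373 CPM in control libraries. XTH15 (AT4G14130) was almost absent under hypoxia, at 0.217, 0.166 and 0 CPM, against 18.1, 6.57 and 5.16 CPM in control libraries.

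Arabinogalactan proteins (AGPs), heavily glycosylated proteins of the cell surface, also had falls and no rise. Of 36 tested genes 14 fell and none rose (38.9% called), 7 of the falls were stable, and the median log2 fold change was -0.95. The count was 9 without control replicate 3 or hypoxia replicate 1 and 8 without hypoxia replicate 2 or 3. AGP7 (AT5G65390, chr5:26128581-26129547) stood at 1.09, 0.663 and 0.706 CPM under hypoxia and at 13.9, 8.67 and 9.67 CPM in control libraries. AGP17 (AT2G23130, chr2:9844134-9845385), a lysine-rich AGP, stood at 1.95, 1.66 and 2.05 CPM under hypoxia and at 31.9, 17.7 and 17.01 CPM in control libraries. In both the groups were far apart. AGP7 fell by 3.70 ± 0.39 (edgeR adjusted p = 0.00014), and AGP17 fell by 3.55 ± 0.31 (edgeR adjusted p = 4.2e-05). Among fasciclin-like members, FLA2 (AT4G12730) fell by 1.72 ± 0.29 and FLA18 (AT3G11700) by 1.21 ± 0.22. Of 36 tested cellulose synthase and COBRA-like genes COBL2 (AT3G29810) was called, lower, with 0.507, 1.41 and 0.988 CPM under hypoxia and 9.07, 4.29 and 4.09 CPM in control libraries. The share of that list called was 2.78%, against 6.48% of all tested genes. Without med25-1 hypoxia replicate 1 or 2 the list had 2 falls, and without med25-1 hypoxia replicate 3 it had 4 falls and 2 rises. Without med25-1 control replicate 2 and 3 it had 1 and 2 rises, and with wild-type libraries alone 5 falls and 3 rises.

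Expansins loosen walls at acid pH. Of 17 tested genes 2 rose and 3 fell (29.4% called, against 6.48% of all tested genes), with a median log2 fold change of 0.08. The 2 became 1 without any 1 of the 3 control libraries or hypoxia replicate 2 or 3, and the 3 became 1 without control replicate 2 or 3 or any 1 of the hypoxia libraries. EXPA10 (AT1G26770) rose by 2.68 ± 0.31 with 40.5, 24.3 and 46.2 CPM under hypoxia and 5.35, 6.83 and 5.26 CPM in control libraries. EXLA1 (AT3G45970), an expansin-like gene, fell by 2.72 ± 0.48 with 4.42, 4.39 and 5.22 CPM under hypoxia and 51.3, 19.96 and 21.5 CPM in control libraries. EXPA1 (AT1G69530) stood at 400, 639 and 571 CPM under hypoxia and at 174, 220 and 235 CPM in control libraries, and its rise of 1.35 ± 0.32 was lost without any 1 of the 3 control libraries and without hypoxia replicate 2 or 3. The other falls were EXPA9 (AT5G02260), with a log2 fold change of -1.34 ± 0.33, and EXPA16 (AT3G55500), with -3.19 ± 0.86. The call of EXPA9 was lost without control replicate 2 or 3 or any 1 of the hypoxia libraries, and that of EXPA16 in 9 of the 12 fits, the exceptions being med25-1 control replicates 2 and 3 and med25-1 hypoxia replicate 3. Of 90 tested pectin enzymes 3 rose and 4 fell (7.78% called, near the 6.48% of all tested genes). The 4 became 1 without control replicate 2, 2 without any 1 of the other wild-type libraries and 11 without med25-1 hypoxia replicate 3, and with wild-type libraries alone 7 rose and 13 fell. PME1 (AT1G53840), a pectin methylesterase, rose by 1.73 ± 0.16 with 199, 281 and 259 CPM under hypoxia and 73.5, 66.6 and 81.7 CPM in control libraries. AT1G04680, a pectin lyase-like protein, rose by 1.56 ± 0.25, and AT1G80170 of the same family fell by 1.46 ± 0.23.

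Growth hormone lists differed in the share called, against 6.48% of all tested genes. Of 22 tested gibberellin and GASA genes 4 fell and 2 rose (27.3% called), with a median log2 fold change of 0.01. Of 21 tested brassinosteroid genes 4 fell and none rose (19.0% called). The brassinosteroid count became 1 without any 1 of the 3 control libraries or hypoxia replicate 3 and 2 without hypoxia replicate 1 or 2, and 1 gene rose without med25-1 hypoxia replicate 3. With wild-type libraries alone 6 brassinosteroid genes fell and 2 rose. GASA1 (AT1G75750, chr1:28441501-28442435), a small secreted protein induced by gibberellin, stood at 47.6, 79.7 and 134 CPM under hypoxia and at 1388, 700 and 725 CPM in control libraries. By mean RPKM it ranked 798th of all features under hypoxia, at 104 ± 53.0, and 66th under control conditions, at 1115 ± 427. It fell by 3.43 ± 0.47 (edgeR adjusted p = 0.001), a stable call although control replicate 1 was far above the others. EXL5 (AT2G17230), an EXORDIUM-like protein, fell by 3.35 ± 0.34 to 7.31, 6.88 and 5.51 CPM under hypoxia, against 102, 45.6 and 53.4 CPM in control libraries. GA3OX1 (AT1G15550), which makes active gibberellin, fell by 1.47 ± 0.21 with 4.85, 5.72 and 6.42 CPM under hypoxia and 16.6, 15.6 and 15.04 CPM in control libraries. GA2OX6 (AT1G02400), which inactivates gibberellin, rose by 1.38 ± 0.24 with 28.5, 21.1 and 18.1 CPM under hypoxia and 10.6, 8.49 and 6.96 CPM in control libraries. The synthesis and the breakdown gene thus moved apart, and the receptor gene GID1A (AT3G05120) rose by 0.66 ± 0.12. BEE3 (AT1G73830), a factor induced by brassinosteroid, fell by 2.25 ± 0.38, and DFL2 (AT4G03400), a GH3 family protein, fell by 1.73 ± 0.26. Of 76 tested auxin response genes 1 rose and 1 fell (2.63% called). The count that rose was 0 without control replicate 1 or 2 or hypoxia replicate 2 or 3 and 2 without med25-1 control replicate 3 or med25-1 hypoxia replicate 3, and between 1 and 5 genes fell when 1 library was left out, with 3 without med25-1 hypoxia replicate 1 and 5 without med25-1 hypoxia replicate 3. With wild-type libraries alone 8 auxin genes rose and 6 fell.

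Of 25 tested aquaporins 4 fell and 1, NIP2;1, rose, with a median log2 fold change of -0.19. The share called was 20%, against 6.48% of all tested genes. TIP2 (AT3G26520, chr3:9722443-9723904), a tonoplast aquaporin, stood at 862, 712 and 901 CPM under hypoxia and at 2131, 1762 and 1858 CPM in control libraries. PIP3 (AT4G35100, chr4:16708361-16710407), a plasma membrane aquaporin, stood at 166, 113 and 119 CPM under hypoxia and at 528, 367 and 428 CPM in control libraries. In both every control library exceeded every hypoxia library by more than 1.5 times. TIP2 fell by 1.22 ± 0.18 (edgeR adjusted p = 0.0016), and PIP3 fell by 1.73 ± 0.27 (edgeR adjusted p = 0.0024). The count of 4 became 2 without control replicate 1 or 3 or any 1 of the 3 hypoxia libraries and 6 with wild-type libraries alone, while the count of 1 became 2 without med25-1 control replicate 2 or med25-1 hypoxia replicate 1 or 3 and 3 with wild-type libraries alone. AVP1 (AT1G15690), the vacuolar proton pyrophosphatase, fell by 0.81 ± 0.14 with 266, 308 and 277 CPM under hypoxia and 508, 462 and 522 CPM in control libraries. PCAP1 (AT4G20260), a cation-binding plasma membrane protein, fell by 1.05 ± 0.19.

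Of 34 tested wax and cutin genes 5 rose and 1 fell, and of 32 tested genes of fatty acid synthesis and desaturation 2 rose and 2 fell. The shares called were 17.6% and 12.5%, against 6.48% of all tested genes. The 5 became 1 without control replicate 2 or 3, 3 without hypoxia replicate 1 or 2 and 2 without hypoxia replicate 3, and the 1 became 0 without control replicate 1 or any 1 of the hypoxia libraries. In the fatty acid list 1 fell without any 1 of the 3 control libraries or hypoxia replicate 2 or 3, 4 rose and 9 fell without med25-1 hypoxia replicate 3, and 4 rose and 9 fell with wild-type libraries alone. FATB (AT1G08510), a thioesterase that releases saturated fatty acids, fell by 1.22 ± 0.14 with 52.0, 53.8 and 54.1 CPM under hypoxia and 148, 111 and 113 CPM in control libraries. LACS2 (AT1G49430), an acyl-CoA synthetase of cutin, rose by 1.76 ± 0.29 with 44.5, 30.8 and 31.4 CPM under hypoxia and 10.5, 11.9 and 9.25 CPM in control libraries. CER1 (AT1G02205), an enzyme of wax alkanes, stood at 21.1, 8.79 and 23.1 CPM under hypoxia and at 2.38, 1.14 and 1.59 CPM in control libraries, and its rise of 3.36 ± 0.65 was lost without control replicate 2 or 3. FER4 (AT2G40300), a ferritin that stores iron, fell by 1.67 ± 0.19 with 21.9, 18.2 and 15.6 CPM under hypoxia and 55.4, 55.5 and 66.01 CPM in control libraries. LZF1 (AT1G78600), a light-induced zinc finger factor, fell by 1.44 ± 0.16, and RVE8 (AT3G09600), a clock factor, rose by 1.07 ± 0.15.

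Large housekeeping groups were hardly called. None of 57 tested light harvesting and photosystem genes, 38 histones or 25 mitochondrially encoded genes was called. At an unadjusted p under 0.05 in edgeR there were 1, 0 and 1 such genes in these 3 lists, DESeq2 called 0 in each, and limma voom called 4, 4 and 1. One mitochondrially encoded gene was called higher without hypoxia replicate 3. Of 294 tested ribosomal proteins 1 fell, AT5G11750, a call lost without control replicate 2 or 3 or hypoxia replicate 2 or 3, and of 78 nuclear respiratory chain genes 1 fell, AT3G60150, with a stable fall of 1.23 ± 0.22. Without med25-1 hypoxia replicate 1, 2 and 3, the ribosomal falls numbered 2, 2 and 3 and the respiratory chain falls 2, 2 and 4, and the respiratory chain list had 2 falls without hypoxia replicate 1 and 1 rise without med25-1 hypoxia replicate 2 or 3. RBCS1A, the main Rubisco small subunit gene, averaged 10600 CPM under hypoxia and 10527 CPM under control conditions. RBCS2B (AT5G38420), a near-identical copy, stood at 872, 1605 and 1480 CPM under hypoxia and at 3998, 3058 and 3234 CPM in control libraries. Its fall of 1.38 ± 0.37 was lost without any 1 of the 6 wild-type libraries, of the 3 med25-1 control libraries or of med25-1 hypoxia replicate 1, and reads that fit several RBCS copies are not in these counts. LHB1B2, a light harvesting gene, averaged 6994 ± 474 RPKM under hypoxia and 9059 ± 221 RPKM under control conditions but 0.554 ± 0.115 CPM and 1.04 ± 0.138 CPM of unique reads in the same order, and the RPKM values include reads shared with other copies.

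The same treatment in med25-1 gave 961 called genes (5.28%), of which 549 were also called in wild type, all in the same direction. The 2 genotypes have separate control libraries. Across genes, pairs of med25-1 hypoxia replicates correlated with r of 0.936 to 0.978, against 0.975 to 0.989 in wild type. Pairs of control replicates correlated with r of 0.970 to 0.983 in med25-1 and 0.983 to 0.991 in wild type. The part of this wider spread in the number of med25-1 calls was not tested. Of the 445 stable wild-type genes, 441 had the same sign in med25-1 and 320 were called there. The test of the difference between the 2 responses called no gene in edgeR and 16 in DESeq2. In edgeR 910 of the 18212 tested genes had an unadjusted p under 0.05. That is about the share which this threshold passes when no gene differs. The core hypoxia list had 42 rises and a median of 2.88 in wild type and 38 rises and a median of 2.82 in med25-1. The ABA and cold list had 17 rises and a median of 0.98 in wild type and 4 rises and a median of 0.53 in med25-1, the XTH list 10 falls and -1.63 against 6 falls and -0.76, and the AGP list 14 falls and -0.95 against 8 falls and -0.24. The log2 fold change of RD29A was 3.10 in wild type and 1.07 in med25-1, where it was not called, and that of PDC2 was 2.199 in wild type and 0.90 in med25-1, also not called. The edgeR test called neither difference between the genotypes, with adjusted p of 0.85 and 0.93. MED25 itself, listed as PFT1 (AT1G25540), stood at 26.2, 38.0 and 33.8 CPM in wild type under hypoxia and at 34.6, 32.7 and 34.9 CPM in wild-type control libraries, with a log2 fold change of -0.06 ± 0.19.

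The number of genes that passed depended on single libraries. The 1181 calls became 759, 710 and 559 without hypoxia replicate 1, 2 and 3, and 641, 629 and 618 without control replicate 1, 2 and 3. They became 1933 without med25-1 hypoxia replicate 3, the library with the fewest gene reads, 7170796. With the 6 wild-type libraries alone 2408 genes were called, 1241 higher and 1167 lower, among them 1173 of the 1181. Pairs of hypoxia replicates correlated with r of 0.975 to 0.989 and pairs of control replicates with r of 0.983 to 0.991, across genes within pairs of libraries, and their counts differed by more than sampling noise.

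**Figure D5:**
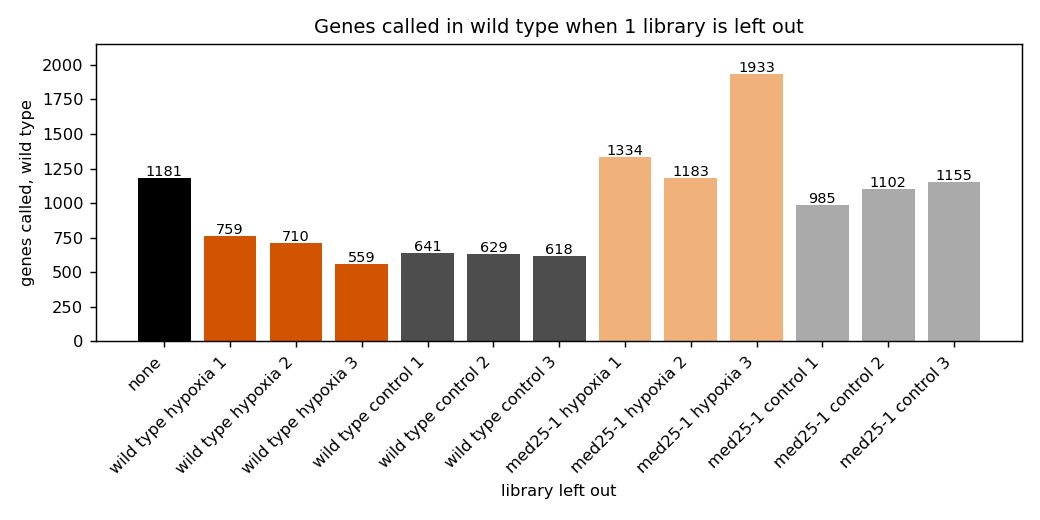
Bars give the number of genes called between hypoxia and control in wild type (y) in the fit of all 12 libraries (black) and in fits that leave out 1 library (x), hypoxia libraries left of control libraries within each genotype. Leaving out any 1 wild-type library gives between 559 and 759 genes, against 1181 with all libraries, and leaving out med25-1 hypoxia replicate 3 gives 1933.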

How the data were processed

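Poly(A) RNA of wild-type and med25-1 rosettes was sequenced under hypoxia and control conditions, 3 biological replicates each, and groups were taken from titles and treatment labels. The authors deposited 1 table with, per the file headers, counts of unique and total gene reads, of exon and of intron reads, and RPKM values. Their own comparison was deposited as a signed fold change (a score here) and an FDR corrected p-value from Baggerley's test. Coordinates are those of TAIR10, per the submitters' processing notes. For the aligner, the counter and the counting strand, nothing is given in the sources used here. Reads of overlapping or antisense genes may therefore be mixed. Of 293 columns, 226 were not used. RPKM values were printed and not tested.

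Unique gene reads were filtered with filterByExpr, scaled by TMM and fitted in edgeR 4.0.16 (R 4.3.3) with 1 mean per group over all 12 libraries, and wild-type hypoxia minus wild-type control was tested two-sided with Benjamini-Hochberg adjustment over 18212 genes. An approximate SE was taken as the size of the log2 fold change over the square root of F. The alternatives were DESeq2 1.42.0, limma 3.58.1 voom, glmTreat, median-ratio (RLE) scaling, other filters and read types, wild-type libraries alone, a replicate block and leaving out each library. Symbols and sequences come from RefSeq (TAIR10.1), with 32909 of 33208 features matched. Named were the 10 largest stable rises and falls with at least 50 mean reads, the 8 largest stable gains and losses in CPM, up to 4 stable members per list or the one with the smallest p, known oxygen response genes, called members that moved against their list and genes with up to 3 control reads. Further called list members were named after their values were seen. Members and lists were chosen with earlier results of these data known, and no list was tested as a set. The intervals and floors cover counting error only.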

Additional observations from a re-analysis of the deposited data

How the results depend on the processing

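All counts below are of genes called between hypoxia and control in wild type, 1181 in the reported fit, 556 higher and 625 lower. Fitted without the med25-1 libraries, the test called 2408 (1241 higher, 1167 lower), limma voom with sample weights 5461 (2676 higher, 2785 lower) and glmTreat against a 2-fold change 143 (99 higher, 44 lower). DESeq2 called 1670, of which 838 were higher. Leaving out 1 library gave 559 to 1933 in all, 271 to 890 higher and 279 to 1043 lower. The cause of these shifts was not tested. The share of calls that were higher was 47.1% in the reported fit, 50.2% in DESeq2, 49.9% with RLE scaling, 51.5% with wild-type libraries alone and 69.2% with glmTreat.

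Same-numbered hypoxia and control libraries had deviations from their group means that correlated at -0.29, -0.12 and -0.10. With 3 libraries per group such deviations are tied to each other, so these values cannot show whether the numbers pair the samples. A replicate block called 1136 genes, and 1457 with the wild-type libraries alone. The difference between the genotypes had no call under the block and 16 in DESeq2.

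Of 119 named genes that were called, 94 were called in each of the 17 alternatives run gene by gene (DESeq2, RLE, wild-type libraries alone, the replicate block, unique exon reads and the 12 fits that leave out 1 library), and none changed sign in them. Many of the 119 were named because their calls were stable, which already required a call in the 12 fits without 1 library. The count of 94 was thus largely fixed by that choice, and so was the lack of sign changes. Of all 1181 calls, 445 (37.7%) were stable. Among named genes not called, the log2 fold change changed sign with the library left out, between -0.18 (without hypoxia replicate 2) and 0.076 (without hypoxia replicate 1) for MED25 (PFT1, AT1G25540), between -0.30 (without hypoxia replicate 2; -0.03 without control replicate 3) and 0.36 (without hypoxia replicate 1) for HRE1 (AT1G72360), and between -0.37 (without hypoxia replicate 2) and 0.15 (without hypoxia replicate 1; 0.04 without control replicate 1) for RAP2.2 (AT3G14230). The difference in intron read share ranged from 0.164 to 0.583 percentage points when 1 wild-type library was left out, and that in mitochondrial read share from 0.000219 to 0.0140, against 0.00793 with all, with the lowest values without hypoxia replicate 2. These alternatives were chosen after seeing the data. Of the tested genes with a mean under 1 CPM, 2.15% were called, against 7.76% of those over 100 CPM, and the median size of a called log2 fold change was 3.25 and 1.04 in these 2 classes.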

Other observations

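Non-coding genes were called at a share near the 6.48% of all tested genes. Of 290 tested long non-coding, other non-coding and unclassified RNA genes, 16 rose and 5 fell. AT3G00210, an unclassified RNA gene on chromosome 3, stood at 27.7, 30.5 and 27.9 CPM under hypoxia and at 6.32, 8.41 and 7.28 CPM in control libraries, a stable log2 fold change of 1.97 ± 0.18. AT1G04107, another on chromosome 1, stood at 100, 143 and 127 CPM under hypoxia and at 43.8, 23.6 and 25.6 CPM in control libraries, a stable rise of 1.99 ± 0.26. AT4G05775, a long non-coding RNA, had 1.52, 0.663 and 1.41 CPM under hypoxia and no read in control libraries. It overlaps AT4G10270 on the other strand, and without a stated counting strand the 2 cannot be told apart. AT5G00425, next to the floral gene PI, had 2.53, 1.41 and 1.55 CPM under hypoxia and 0.0743, 0 and 0.0532 CPM in control libraries, and PI itself averaged 5.66 ± 1.48 CPM under hypoxia and 0.879 ± 0.0851 CPM under control conditions.

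Neighbours of called genes were counted and not tested. Of the 556 genes that rose, 110 (19.8%) had an adjacent tested gene that also rose, against 5.96% of all tested genes. Of the 625 that fell, 82 (13.1%) had an adjacent gene that fell, against 6.69% of all. Runs of adjacent genes included AT4G10265, AT4G05775 and AT4G10270, with log2 fold changes of 8.44, 7.16 and 7.86, the ion channel genes CNGC3, CNGC11 and CNGC12, with 1.01, 1.25 and 1.35, and XTH25, TCH4 and AT5G57565, with -1.76, -2.91 and -0.97. Overlap between neighbours and shared sequence in such clusters were not tested as sources of this.

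Of the 13 motifs searched, 2 are given here, chosen after their shares were seen and not tested. The site II element TGGGCC was found in 11.7% of promoters of genes that rose, 12.32% of those that fell and 19.7% of those tested, and the telo box AAACCCTA in 2.52%, 2.24% and 5.56% of the same sets. The median exon length was 1624 bases for genes that rose, 1943 for genes that fell and 1790.5 for all tested genes.

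The authors' deposited table lists 4000 features (12%) with an FDR corrected p under 0.05 for hypoxia against control in wild type. Of the 3930 tested here, 1817 had a positive fold and 2102 a negative fold. Called here as well were 1137, which is 28.9% of theirs and 96.3% of the calls here. The same direction was found for 1129 of the shared genes. The deposited fold is missing for 1666 of all features, and a shared gene without one could not be counted as the same direction. The remainder is therefore not a count of opposite directions.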
